A study of Mus musculus with 12 samples.

Results

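The 9 genes described here act in the storage, transport and oxidation of vitamin A in the liver, and were taken by symbol from the table of 48795 genes. They are *Rbp4*, *Ttr*, *Lrat*, *Rdh16*, *Cyp26a1*, *Aldh1a1*, *Aldh1a7*, *Rarb* and *Bco1*, and all 9 had enough counts to be tested among 13812 genes. Liver RNA was sequenced from 12 female mice, all 4 months old, kept on normal chow and described as littermates matched for sex and age. Mice labelled *Nts*+/+ or *Nts*-/-, a whole-body deletion of the neurotensin gene bred from heterozygous parents, either had free access to food or were fasted for 22 h, with 3 mice in each of the 4 groups. The fed *Nts*+/+ mice were 254, 257 and 323, the fasted *Nts*+/+ mice 265, 282 and 322, the fed *Nts*-/- mice 277, 303 and 319 and the fasted *Nts*-/- mice 284, 290 and 295. The comparisons ask how the livers differ between feeding states and between genotypes.

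Vitamin A reaches hepatocytes as retinyl esters, is passed as retinol to stellate cells for storage as ester, and leaves the liver as retinol bound to its carrier in plasma. Within cells, retinol is oxidized reversibly to retinal and irreversibly to retinoic acid, which acts through nuclear receptors and is cleared by further oxidation. Carotenoids are a second source, since their cleavage gives retinal.

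The libraries held between 21999647 and 45273069 counts. *Nts* itself had 0 counts in each of the 6 libraries labelled *Nts*+/+ and between 4 and 46 counts in those labelled *Nts*-/-, the reverse of the order in the genotype labels. Counts per gene do not show which part of *Nts* the reads came from, and the cause was not tested. Genotype directions below are therefore those of the deposited labels. The feeding labels were matched by 4 of the 5 genes named here. *Cyp4a14* and *Fgf21* rose with fasting in both genotypes, with log2 fold changes from 2.96 to 3.72, and *Fasn* and *Pnpla3* fell, with log2 fold changes from −1.93 to −4.85 (edgeR adjusted *p* of at most 0.0126). Counts of *Pnpla3* were few, and fed mouse 323 had 8, beside 4, 9 and 5 in the fasted *Nts*+/+ mice. *Pdk4* did not pass (1.20 and 0.53, edgeR adjusted *p* = 0.0846 and 0.44). The 8 hepatocyte markers were summed in CPM (counts scaled by effective library size, using trimmed-mean factors called TMM). In *Nts*+/+ livers the sums were 117564 to 137451 fed and 126277 to 152437 fasted. With the *Nts*-/- label they were 109760 to 122670 fed and 130638 to 139042 fasted. Of the 8, 3 rose with fasting in both genotypes (*Apob*, *Cyp2e1* and *Apoa1*) and 0 fell in either. Among all tested genes, 8.91% and 7.70% rose. The labels give one batch year, 2015, for all mice.

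Of the 9 genes, 5 changed with fasting in mice labelled *Nts*+/+, 2 upward (*Rbp4* and *Rdh16*) and 3 downward (*Ttr*, *Lrat* and *Cyp26a1*). Across all tested genes, 18.1% changed in this comparison, 8.91% upward and 9.19% downward (edgeR quasi-likelihood test, Benjamini-Hochberg adjusted *p* under 0.05). The same 5 genes changed in the same directions in mice labelled *Nts*-/-, where 16.8% of all genes changed, 7.7% upward and 9.14% downward. They also passed for the mean of both genotypes, where 32.8% of all genes did, 16% upward and 16.8% downward. The median log2 fold change of the 9 genes was −0.047 in *Nts*+/+ and −0.40 in *Nts*-/- livers, beside −0.0032 and −0.011 over all tested genes. *P* values weigh a difference between group means against the estimated spread between mice. With 1 mouse left out at a time, 2 to 4 genes passed in *Nts*+/+ livers. The count was 2 (*Rbp4* and *Cyp26a1*) without fed mouse 254, fed mouse 257 or fasted mouse 282. It was 3 without fed mouse 323, where *Ttr* also passed, or fasted mouse 265, where *Aldh1a7* also passed. In *Nts*-/- livers 4 or 5 passed. The share of all tested genes in these fits is not given here.

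**Figure D1:**
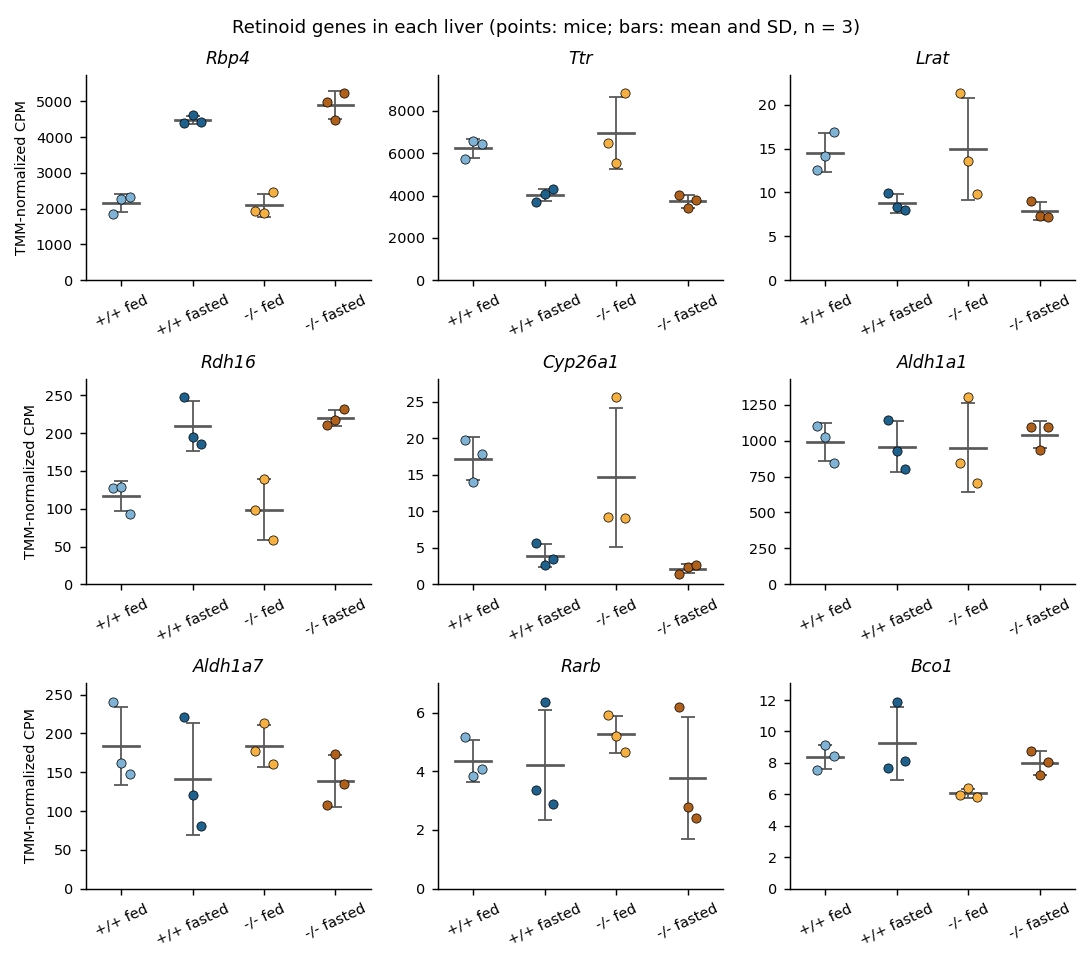
Level of each of the 9 retinoid genes in every liver, as TMM-normalized CPM (linear axes from 0), for the 4 groups by genotype label and feeding state. Points are mice, and the bars give the mean and SD (n = 3). Fasted and fed mice of a genotype do not overlap for *Rbp4*, *Ttr*, *Lrat*, *Rdh16* and *Cyp26a1*, whereas *Aldh1a1*, *Aldh1a7* and *Rarb* overlap in both genotypes.

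The carriers of retinol in plasma moved in opposite directions. *Rbp4* (ENSMUSG00000024990, GRCm38 chromosome 19 from 38116620 to 38125321) encodes the retinol-binding protein that hepatocytes secrete. Levels are TMM-normalized CPM, that is, counts divided by the effective library size of each mouse, which makes mice comparable for a gene but not genes of different length. In fed *Nts*+/+ livers *Rbp4* was at 1856, 2268 and 2314 CPM, and in fasted ones at 4404, 4622 and 4421 CPM. In fed livers labelled *Nts*-/- it was at 1948, 1878 and 2468 CPM, and in fasted ones at 4998, 4480 and 5230 CPM. Every fasted liver was above every fed liver, whatever its genotype label. *Rbp4* rose 2.09-fold in *Nts*+/+ livers (log2 fold change 1.06, standard error 0.15, edgeR adjusted *p* = 0.000571) and 2.34-fold in *Nts*-/- livers (1.22, standard error 0.15, edgeR adjusted *p* = 0.000179). The 95% intervals of the fold were 1.66 to 2.62 and 1.86 to 2.94.

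*Ttr* (ENSMUSG00000061808, GRCm38 chromosome 18 from 20665250 to 20674324) encodes transthyretin, which binds the retinol-carrying form of that protein in plasma and also carries thyroxine. It was at 5711, 6574 and 6417 CPM in fed and 3715, 4063 and 4294 CPM in fasted *Nts*+/+ livers. In livers labelled *Nts*-/- it was at 6487, 5528 and 8837 CPM when fed and 4014, 3416 and 3772 CPM when fasted. Fed and fasted livers did not overlap, and fed mouse 319 stood highest. *Ttr* fell 1.55-fold in *Nts*+/+ livers (log2 fold change −0.63, standard error 0.17, edgeR adjusted *p* = 0.0226) and 1.86-fold in *Nts*-/- livers (−0.90, standard error 0.17, edgeR adjusted *p* = 0.0037). In *Nts*+/+ livers the adjusted *p* was between 0.0336 and 0.0773 with 1 mouse left out, and it missed 0.05 without mouse 254, 257, 265 or 282.

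Per kilobase of transcript, these 2 carriers were the most abundant of the 9 genes. *Ttr* ranked 13 and *Rbp4* 20 among 13700 tested genes with a transcript length, by mean CPM per kilobase over the 12 mice. The order of the 2 genes reversed with feeding. Fed livers had 4645 ± 342 CPM per kilobase of *Ttr* and 1761 ± 207 of *Rbp4* in *Nts*+/+ mice, and fasted ones 2998 ± 217 and 3677 ± 99.4 (SD, n = 3). The ratio of *Rbp4* to *Ttr* in CPM was between 0.279 and 0.361 in the 6 fed livers and between 1.03 and 1.39 in the 6 fasted livers. A gene called Gm16090 overlaps *Ttr* and had 4.64 counts per library on average, which cannot be told apart from *Ttr* where strand is not recorded.

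For storage, *Lrat* (ENSMUSG00000028003, GRCm38 chromosome 3 from 82892579 to 82903973) encodes lecithin retinol acyltransferase, which esterifies retinol and in the liver belongs to stellate cells. It was at 12.5, 14.2 and 16.9 CPM in fed and 9.96, 8.33 and 7.95 CPM in fasted *Nts*+/+ livers. With the *Nts*-/- label it was at 21.3, 13.6 and 9.87 CPM when fed and 9.02, 7.27 and 7.25 CPM when fasted. Fed and fasted mice of each genotype did not overlap, although fed mouse 319 (9.87 CPM) was close to the fasted mice. *Lrat* fell 1.66-fold in *Nts*+/+ livers (log2 fold change −0.74, standard error 0.23, edgeR adjusted *p* = 0.0432) and 1.91-fold in *Nts*-/- livers (−0.94, standard error 0.23, edgeR adjusted *p* = 0.0151). The call in *Nts*+/+ livers was lost whichever of the 6 mice was left out, with an adjusted *p* from 0.0569 to 0.127. In *Nts*-/- livers it was lost without mouse 277, 290 or 295, and without mouse 277 the log2 fold change was −0.58.

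Some markers of stellate cells also fell with fasting. Of 16 such genes other than *Lrat*, 5 fell in *Nts*+/+ livers and 7 in *Nts*-/- livers. Of all tested genes 9.19% and 9.14% fell, and 0 of the 16 rose in either genotype. *Ngfr*, *Pdgfrb*, *Col3a1*, *Angptl6* and *Sod3* were the 5, and *Col1a1* and *Reln* fell in *Nts*-/- livers too. The summed level of the 16 was between 481 and 591 CPM in fed and between 424 and 459 CPM in fasted *Nts*+/+ livers. It was between 489 and 566 CPM in fed and between 398 and 443 CPM in fasted livers labelled *Nts*-/-. No marker of the list was at 0 in all mice. Sinusoidal endothelial markers (8 genes) summed to between 240 and 345 CPM in fed and between 207 and 218 CPM in fasted *Nts*+/+ livers, and to between 262 and 302 and between 192 and 224 CPM in those labelled *Nts*-/-. Of these 8, 1 rose and 3 fell in *Nts*+/+ livers, where 8.91% and 9.19% of all tested genes did. In those labelled *Nts*-/- 0 rose and 3 fell, where 7.70% and 9.14% did. Kupffer cell markers (8 genes), from the resident macrophages, summed to between 563 and 620 CPM in fed and between 277 and 475 CPM in fasted *Nts*+/+ livers, where *Clec4f*, *C1qa* and *C1qb* fell. In those labelled *Nts*-/- the sums overlapped, at 366 to 466 and 358 to 525 CPM. Markers of cholangiocytes, the bile duct cells (5 genes), summed to between 34.0 and 49.7 CPM in fed and between 13.7 and 26.2 CPM in fasted *Nts*+/+ livers, and to between 33.4 and 35.7 and between 15.1 and 29.6 CPM in those labelled *Nts*-/-. In bulk liver, fewer cells of a type and less RNA per cell cannot be told apart, and the part of these cell types in the *Lrat* result was not tested.

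**Figure D2:**
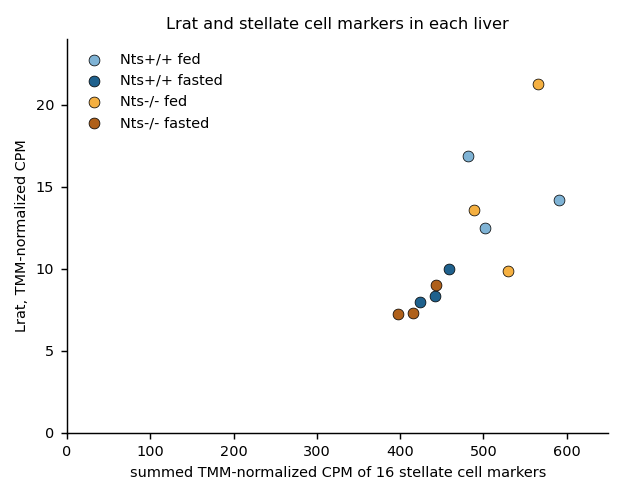
*Lrat* (vertical axis, TMM-normalized CPM) against the summed TMM-normalized CPM of 16 stellate cell markers (horizontal axis), 1 point for each of the 12 livers, coloured by group. The 6 fasted livers lie at 459 or below in the markers and at 9.96 or below in *Lrat*, and the 6 fed livers lie at 481 or above in the markers.

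Oxidation of retinol begins with dehydrogenases. *Rdh16* (ENSMUSG00000069456, GRCm38 chromosome 10 from 127801152 to 127846565) encodes a microsomal retinol dehydrogenase of the short-chain family. It was at 128, 129 and 93.4 CPM in fed and 247, 195 and 185 CPM in fasted *Nts*+/+ livers. With the *Nts*-/- label it was at 98.7, 139 and 59.1 CPM when fed and 211, 217 and 232 CPM when fasted. All fasted livers were above all fed livers. As deposited, *Rdh16* rose 1.79-fold in *Nts*+/+ livers (log2 fold change 0.84, standard error 0.25, edgeR adjusted *p* = 0.0323) and 2.23-fold in *Nts*-/- livers (1.15, standard error 0.25, edgeR adjusted *p* = 0.00733). In *Nts*+/+ livers its adjusted *p* was between 0.0422 and 0.097 with 1 mouse left out, passing only without mouse 322.

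The value of *Rdh16* is uncertain, since reads of close copies can be assigned to it and its own to them. Its coding sequence was 96.3% identical to that of *Rdh9*, 94.1% to *Rdh19*, 93.1% to *Rdh1* and 91.8% to *Rdh16f2* (listed as BC089597), and its estimated counts were not whole numbers in 12 of 12 mice. *Rdh9* rose too (log2 fold change 0.77 in *Nts*+/+ and 1.54 in *Nts*-/- livers, edgeR adjusted *p* = 0.00856 and 0.000109). *Rdh16f2* fell in *Nts*+/+ livers (−0.52, edgeR adjusted *p* = 0.049, or 0.0534 with RLE size factors) and was at −0.30 in *Nts*-/- livers (edgeR adjusted *p* = 0.258). In fed *Nts*+/+ livers *Rdh16f2* was at 235, 212 and 255 CPM, above both *Rdh16* and *Rdh9* in each mouse.

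Summed over these 5 genes, an alternative chosen after seeing the data, the level was 437.3, 428.6 and 421.4 CPM in fed and 607.8, 468 and 443.2 CPM in fasted *Nts*+/+ livers. The sum did not pass in *Nts*+/+ livers (log2 fold change 0.24, standard error 0.16, edgeR adjusted *p* = 0.32). It rose in *Nts*-/- livers (0.52, standard error 0.16, edgeR adjusted *p* = 0.039), where the fed livers were at 356.4, 461.2 and 340.2 CPM and the fasted ones at 603.1, 489.9 and 562.6 CPM. Fasted livers were above fed livers of the same genotype label in this sum as well.

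**Figure D3:**
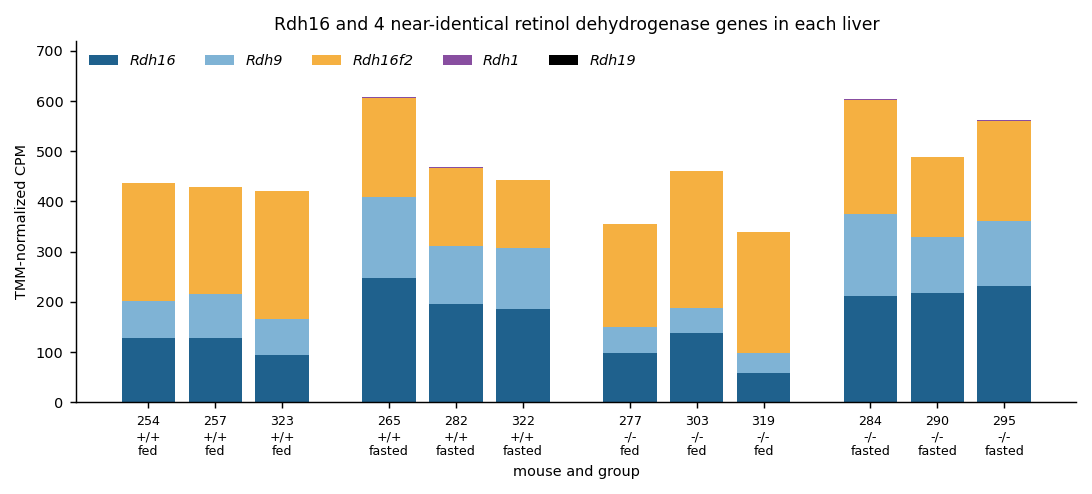
Stacked TMM-normalized CPM (vertical axis, from 0) of *Rdh16* and the near-identical genes *Rdh9*, *Rdh16f2*, *Rdh1* and *Rdh19* in each of the 12 livers, grouped by genotype label and feeding state. The *Rdh16* and *Rdh9* segments are taller in fasted livers, and the whole bars reach from 421.4 to 437.3 in fed and from 443.2 to 607.8 in fasted *Nts*+/+ livers.

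The aldehyde dehydrogenases did not pass in either genotype. *Aldh1a1* (ENSMUSG00000053279, GRCm38 chromosome 19 from 20601961 to 20643462) encodes a cytosolic enzyme that oxidizes retinal to retinoic acid. Its levels were 1098, 1026 and 847 CPM in fed and 1146, 928 and 802 CPM in fasted *Nts*+/+ livers, and 847, 1300 and 708 CPM in fed and 1095, 935 and 1095 CPM in fasted livers labelled *Nts*-/-. The groups overlapped. Its log2 fold change was −0.047 in *Nts*+/+ livers (95% interval −0.50 to 0.41, edgeR adjusted *p* = 0.901) and 0.13 in *Nts*-/- livers (95% interval −0.32 to 0.58, edgeR adjusted *p* = 0.719).

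*Aldh1a7* (ENSMUSG00000024747, GRCm38 chromosome 19 from 20692953 to 20727562) is the neighbouring copy, with 91.6% identity to *Aldh1a1* in the coding sequence. It was at 241, 162 and 148 CPM in fed and 221, 121 and 80.8 CPM in fasted *Nts*+/+ livers. In livers labelled *Nts*-/- it was at 177, 214 and 161 CPM when fed and 108, 174 and 135 CPM when fasted. The groups overlapped, and the log2 fold changes were −0.38 (95% interval −1.11 to 0.34, edgeR adjusted *p* = 0.462) and −0.40 (95% interval −1.12 to 0.32, edgeR adjusted *p* = 0.446). Without fasted mouse 265, *Aldh1a7* passed in *Nts*+/+ livers at −0.86 (edgeR adjusted *p* = 0.0483). Estimated counts of both genes were not whole in 11 of 12 mice, and their sum, chosen as an alternative after seeing the data, did not pass (−0.095 and 0.057, edgeR adjusted *p* = 0.794 and 0.888). By CPM per kilobase of its transcript over the 12 mice, *Aldh1a1* stood at 159 against 30.7 for *Aldh1a7* and 49.0 for *Rdh16*.

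The largest change among the 9 genes was in clearance. *Cyp26a1* (ENSMUSG00000024987, GRCm38 chromosome 19 from 37697808 to 37701528) encodes the cytochrome P450 that oxidizes retinoic acid for its removal, and it is known to be induced by retinoic acid. It was at 19.8, 14 and 17.8 CPM in fed and 5.65, 2.71 and 3.5 CPM in fasted *Nts*+/+ livers. In livers labelled *Nts*-/- it was at 9.26, 25.6 and 9.06 CPM when fed and 1.47, 2.34 and 2.72 CPM when fasted. Every fasted liver was below every fed liver, and among fed livers labelled *Nts*-/- mouse 303 stood apart from the other 2. *Cyp26a1* fell 4.40-fold in *Nts*+/+ livers (95% interval of the log2 fold change −3.09 to −1.19, at −2.14, edgeR adjusted *p* = 0.00756). It fell 6.61-fold in *Nts*-/- livers (−3.72 to −1.73, at −2.72, edgeR adjusted *p* = 0.00262). Without any single mouse it still passed in both genotypes, with log2 fold changes from −2.45 to −1.93 and from −2.97 to −2.04.

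The nuclear receptor gene and the carotenoid gene did not pass. *Rarb* (ENSMUSG00000017491, GRCm38 chromosome 14 from 16430842 to 16575472) encodes retinoic acid receptor beta, itself known to be induced by retinoic acid. It was at 5.17, 3.83 and 4.08 CPM in fed and 3.37, 6.38 and 2.90 CPM in fasted *Nts*+/+ livers. With the *Nts*-/- label it was at 5.93, 5.21 and 4.67 CPM when fed and 6.18, 2.77 and 2.41 CPM when fasted. Mouse 282 and mouse 284, at 6.38 and 6.18 CPM, were each the highest of their fasted group and above every fed liver. The log2 fold changes were −0.047 (95% interval −0.81 to 0.72, edgeR adjusted *p* = 0.943) and −0.50 (95% interval −1.26 to 0.27, edgeR adjusted *p* = 0.369). The sign in *Nts*+/+ livers changed when 1 mouse was left out, over a range from −0.48 to 0.17.

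*Cyp26a1* and *Rarb* are shown by sequence because they were the only genes of the 9, among the 8 with an entry in the promoter table, whose promoter window held a direct repeat of the retinoic acid response element kind with a spacer of 5 bases. The search took any pair of the letters AGGTCA or AGTTCA or GGGTCA or GGTTCA in the same orientation, on both strands, with 1, 2 or 5 bases between them. The windows hold 250 bases before and 50 from the start site on, 300 in all, and are from RefSeq's GRCm38.p6. Capitals mark the repeat, and each window is written 5′ to 3′ on the strand of its gene.
Cyp26a1, chr19:37697558-37697857, plus strand: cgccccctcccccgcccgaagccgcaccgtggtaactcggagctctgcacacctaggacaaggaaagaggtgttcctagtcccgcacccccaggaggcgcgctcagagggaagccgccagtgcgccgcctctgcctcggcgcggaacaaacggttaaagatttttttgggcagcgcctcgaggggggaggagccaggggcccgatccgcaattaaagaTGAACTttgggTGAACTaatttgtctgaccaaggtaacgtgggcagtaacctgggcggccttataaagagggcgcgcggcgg
Rarb, chr14:16575427-16575726, minus strand: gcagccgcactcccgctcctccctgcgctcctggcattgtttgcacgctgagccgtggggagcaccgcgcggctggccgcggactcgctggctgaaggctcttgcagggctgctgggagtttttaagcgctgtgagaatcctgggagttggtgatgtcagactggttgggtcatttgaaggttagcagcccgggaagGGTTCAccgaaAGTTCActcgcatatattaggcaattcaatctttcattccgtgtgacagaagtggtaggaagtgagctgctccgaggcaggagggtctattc
The *Cyp26a1* repeat reads on the opposite strand of the gene and starts at position −32, and the *Rarb* repeat reads on the strand of the gene and starts at −53. Both positions are counted from the start site. Among 32851 promoter windows, 32 (0.0974%) held a repeat with this spacer. A match of letters is a description of the sequence, and binding was not measured here. Of the 2 genes whose windows shared it, *Cyp26a1* fell with fasting and *Rarb* did not pass. The 2 responses were not compared by a test, and the part of the repeat in either was not tested. *Bco1* held a repeat with a spacer of 1 base, at −56 on the opposite strand, as did 73 of the windows (0.222%). No repeat of these kinds was in the windows of *Lrat*, *Rdh16*, *Aldh1a1*, *Aldh1a7* or *Rbp4*.

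*Bco1* (ENSMUSG00000031845, GRCm38 chromosome 8 from 117095854 to 117133720) encodes the oxygenase that cleaves beta-carotene to retinal. It was at 7.57, 9.12 and 8.42 CPM in fed and 7.69, 11.9 and 8.14 CPM in fasted *Nts*+/+ livers. With the *Nts*-/- label it was at 5.95, 6.41 and 5.84 CPM when fed and 8.75, 7.23 and 8.08 CPM when fasted. The *Nts*+/+ groups overlapped, and the groups labelled *Nts*-/- did not. The log2 fold changes were 0.15 (95% interval −0.23 to 0.52, edgeR adjusted *p* = 0.6) and 0.40 (95% interval 0.027 to 0.78, edgeR adjusted *p* = 0.131).

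No gene of the 9 passed between the genotype labels, which does not show that their levels were alike. In fed livers, in fasted livers and for the mean of both, 0 of 9 passed, with 0% of all tested genes passing in each (edgeR, adjusted *p* under 0.05). At an unadjusted *p* under 0.05, 1 of the 9 was found in fed livers, 0 in fasted livers and 1 for the mean, beside 6.34%, 4.96% and 6.22% of all tested genes. The Wald test of DESeq2 also gave 0 of 9 in each, and 8, 4 and 16 genes among all tested. The 1 gene was *Bco1*, at 8.37 ± 0.777 CPM in fed *Nts*+/+ and 6.07 ± 0.30 CPM in fed livers labelled *Nts*-/- (SD, n = 3), without overlap. Its log2 fold change was −0.46 (95% interval −0.84 to −0.089, edgeR adjusted *p* = 0.734), and −0.21 in fasted livers (95% interval −0.58 to 0.16, edgeR adjusted *p* = 0.92).

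*Cyp26a1* had the widest intervals. In fed livers its log2 fold change between the labels was −0.23 (95% interval −1.12 to 0.66), and it was 0.015 without mouse 277 or mouse 319. In fasted livers it was −0.82 (95% interval −1.82 to 0.19, edgeR adjusted *p* = 0.917), with 3.95 ± 1.52 CPM in *Nts*+/+ and 2.17 ± 0.641 CPM in *Nts*-/- livers (SD, n = 3). The groups touched, since *Nts*+/+ mouse 282 at 2.71 CPM was below *Nts*-/- mouse 295 at 2.72 CPM. The most abundant of the 9 genes in fasted livers, *Rbp4*, was at 0.13 (95% interval −0.20 to 0.45, edgeR adjusted *p* = 0.943), so a difference above 1.37-fold lay outside its interval.

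The response to fasting was compared between the genotypes directly, as the difference of the log2 fold changes (*Nts*-/- minus *Nts*+/+). It passed for 0 of the 9 genes and 0% of all tested genes in edgeR, with 0 of 9 at an unadjusted *p* under 0.05, beside 4.8% of all tested genes, and for 0 of 9 and 3 of all genes in DESeq2. The differences lay between −0.59 (*Cyp26a1*, 95% interval −1.92 to 0.75) and 0.32 (*Rdh16*, 95% interval −0.43 to 1.06), with a smallest edgeR adjusted *p* of 0.906. For *Cyp26a1* the difference was 0.099 without fed mouse 303. The intervals leave room for differences of this size, and a *p* above the threshold does not show that the responses were alike.

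**Figure D4:**
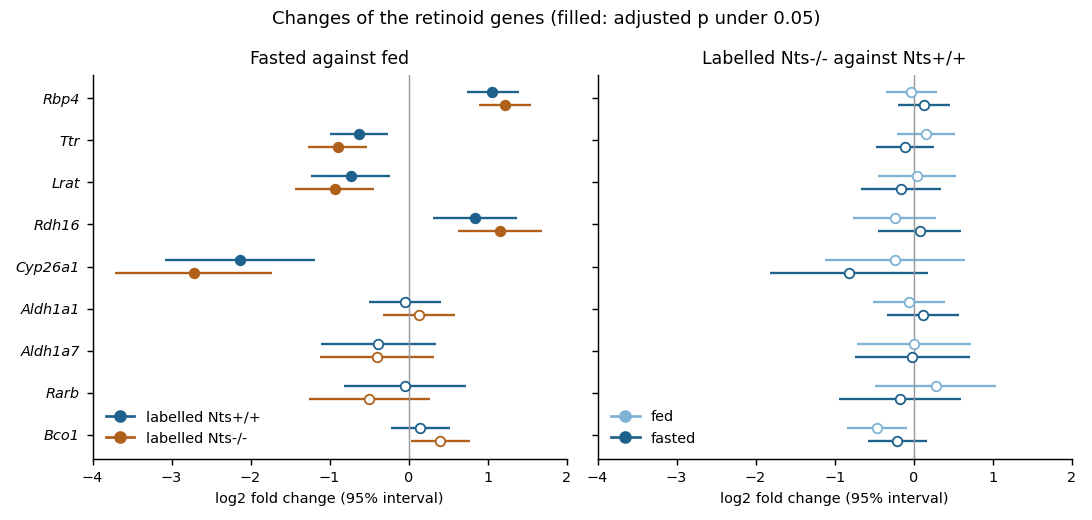
Log2 fold changes (horizontal axis) of the 9 genes with 95% intervals from edgeR, for fasting in each genotype (left) and for the genotype labels in each feeding state (right). Filled points passed an adjusted *p* of 0.05. In the left panel *Rbp4* and *Rdh16* lie above 0 and *Ttr*, *Lrat* and *Cyp26a1* below it in both genotypes, and in the right panel no point is filled.

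Mice of one group also differed from each other. The SD of log2 CPM within groups was lowest for *Rbp4* (0.15), *Ttr* and *Bco1* (0.20 each) and highest for *Cyp26a1* (0.56), *Rarb* (0.49) and *Aldh1a7* (0.46). For *Ttr*, *Lrat*, *Rdh16*, *Cyp26a1* and *Aldh1a1* the SD in CPM was largest among the fed mice labelled *Nts*-/-. There, mouse 303 was highest in *Rdh16*, *Aldh1a1*, *Aldh1a7* and *Cyp26a1* and lowest in *Ttr* and *Rbp4*. Mouse 319 was lowest in *Rdh16*, *Aldh1a1*, *Aldh1a7* and *Cyp26a1* and highest in *Ttr* and *Rbp4*. Mouse 277 was the highest in *Lrat* and *Rarb*. Rank across these mice is a description, and *Aldh1a1*, *Aldh1a7* and *Rdh16* were measured in the same libraries.

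A wider list of 64 genes of retinoid handling, without the 9, was described in the same way. Of these, 62 were found by symbol and 2 by identifier, and 50 had enough counts to be tested. Fasting changed 17 of the 50 (34.0%) in *Nts*+/+ livers, 6 upward and 11 downward, and 17 in *Nts*-/- livers, also 6 upward and 11 downward. These counts stand beside the 18.1% and 16.8% of all tested genes given above. The list was chosen with earlier results of these data known. It holds *Pnpla3*, one of the genes used to check the feeding labels, and other genes that also handle fatty acids or their esters. In both genotypes 15 genes passed, 5 upward and 10 downward in each. The median log2 fold change of the 50 genes was −0.056 in *Nts*+/+ and −0.027 in *Nts*-/- livers.

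Among genes of uptake and binding, *Stra6l*, which encodes a second receptor for the retinol-binding protein, fell from 186 to 103 CPM in *Nts*+/+ and from 203 to 114 CPM in *Nts*-/- livers (group means, log2 fold change −0.85 and −0.83, edgeR adjusted *p* = 0.00115 and 0.00116). *Fabp5*, a fatty acid binding protein that also binds retinoic acid, fell from 67.5 to 4.13 CPM and from 61.6 to 3.32 CPM (−4.01 and −4.22, edgeR adjusted *p* = 0.00428 and 0.00375). The receptor gene *Stra6* had 1 count in 1 of the 12 mice and was not tested.

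Among enzymes that make or break retinyl and other esters, *Dgat1*, an acyltransferase for diacylglycerol and retinol, rose from 14.9 to 26 CPM in *Nts*+/+ and from 15.8 to 27.8 CPM in *Nts*-/- livers (0.80 and 0.82, edgeR adjusted *p* = 0.000605 and 0.000415). The lipase gene *Pnpla2* rose from 49.0 to 141 CPM and from 48.5 to 130 CPM (1.52 and 1.42, edgeR adjusted *p* = 7.12e-05 and 7.64e-05). *Pnpla3*, whose product has retinyl ester hydrolase activity in stellate cells, fell (−4.38 and −4.85, edgeR adjusted *p* = 0.00873 and 0.0103), from a fed mean of 4.34 and 2.82 CPM. Its fasted means were near the floor, at 0.208 and 0.103 CPM. Fed *Nts*+/+ mouse 323 had 8 counts (0.355 CPM), close to fasted mouse 282 with 9 counts (0.297 CPM). Fed mice 254 and 257 were at 5.58 and 7.1 CPM. The hepatic lipase gene *Lipc* fell (−0.74 and −0.64, edgeR adjusted *p* = 0.00634 and 0.0136).

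Of 17 tested genes for the interconversion of retinol and retinal, 2 rose and 5 fell in *Nts*+/+ livers, and 3 rose and 5 fell in *Nts*-/- livers. Across all tested genes, 8.91% rose and 9.19% fell in *Nts*+/+ livers, and 7.70% rose and 9.14% fell in *Nts*-/- livers. *Rdh11*, a retinal reductase, fell from 102 to 23.7 CPM and from 139 to 19.3 CPM (−2.10 and −2.85, edgeR adjusted *p* = 0.000436 and 7.11e-05). *Dhrs3*, which reduces retinal to retinol and is known to respond to retinoic acid, fell from 208 to 107 CPM and from 191 to 113 CPM (−0.96 and −0.75, edgeR adjusted *p* = 0.000532 and 0.00227). The alcohol dehydrogenase genes *Adh1* (−1.31 and −1.13) and *Adh4* (−1.66 and −1.31) fell in both genotypes, with an edgeR adjusted *p* of at most 0.00456. *Adh1* went from 3764 to 1518 CPM in *Nts*+/+ livers. *Rdh13* rose (0.86 and 0.92, edgeR adjusted *p* = 0.0187 and 0.0139), and *Rdh9* is given above. *Dhrs4* rose in *Nts*-/- livers (0.80, edgeR adjusted *p* = 0.00366) and was at 0.29 in *Nts*+/+ livers. *Dhrs9* fell in *Nts*-/- livers (−1.02, edgeR adjusted *p* = 0.04) and was at −0.81 in *Nts*+/+ livers. The differences between the genotypes in these responses did not pass.

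For the oxidation of retinal, *Aox3*, an aldehyde oxidase, fell (−1.04 and −0.98, edgeR adjusted *p* = 0.00869 and 0.0117), and *Aldh1a2* had 1 to 6 counts per mouse and was not tested. For clearance, *Cyp2c39*, a P450 known to oxidize retinoic acid, rose in *Nts*+/+ livers from 7.83 to 28.1 CPM (1.85, edgeR adjusted *p* = 0.0191) and was at 1.12 in *Nts*-/- livers (edgeR adjusted *p* = 0.109). *Cyp26b1*, the other tested member of its family, was at −0.70 and 0.37 (edgeR adjusted *p* = 0.645 and 0.83). None of the 8 receptor and cofactor genes passed in edgeR in either genotype, with 2 and 1 at an unadjusted *p* under 0.05, beside 32.5% and 31.7% of all tested genes. Among them *Rara* was at −0.087 and −0.043 and *Rxra* at 0.098 and 0.12. *Rarg*, another retinoic acid receptor, named after its values were seen, was at −0.47 and −0.45 (edgeR adjusted *p* = 0.091 and 0.105). It was the 1 gene of the 8 that passed for the mean of both genotypes (−0.46, edgeR adjusted *p* = 0.0142), where 32.8% of all tested genes did.

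Of the carotenoid genes, *Bco2*, the mitochondrial carotenoid oxygenase, fell from 27.0 to 11.8 CPM in *Nts*+/+ and from 27.5 to 13.7 CPM in *Nts*-/- livers (−1.20 and −0.998, edgeR adjusted *p* = 0.00172 and 0.00497). *Cd36*, which takes up fatty acids and carotenoids, rose (1.85 and 1.99, edgeR adjusted *p* = 0.00133 and 0.000748). Another 4 tested genes are known to respond to retinoic acid (*Rarres1*, *Rarres2*, *Tgm2* and *Hoxa5*). Of these 4, 0 passed in edgeR in either genotype. At an unadjusted *p* under 0.05 there were also 0, beside the 32.5% and 31.7% of all tested genes. *Cyp26a1* and *Dhrs3*, which fell in both genotypes, and *Rarb*, which did not pass, are given above and are not among the 4. Between the genotype labels 0 of the 50 genes passed in edgeR in any comparison, with 1 to 3 at an unadjusted *p* under 0.05, beside 4.96% to 6.34% of all tested genes. *Rdh9*, at 78.1 CPM in fed *Nts*+/+ and 46.8 CPM in fed *Nts*-/- livers, was the 1 gene in fed livers (−0.74, edgeR adjusted *p* = 0.709). The doubt over reads of close copies given for *Rdh16* holds for *Rdh9* too. The sum with its near-identical genes was at −0.15 between the labels in fed livers (standard error 0.16, edgeR adjusted *p* = 0.871).

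Some of these calls rest on single mice. With 1 mouse left out, *Lipc* missed the threshold in *Nts*-/- livers without mouse 277, 303 or 290 (adjusted *p* up to 0.0557), *Aox3* without 277, 284 or 290 (up to 0.0569) and *Rdh13* without 277, 284 or 290 (up to 0.0632). *Pnpla3* missed it there without 295 (0.0528), and *Dhrs9* passed only when 303 was the mouse left out (otherwise up to 0.13). In *Nts*+/+ livers *Rdh13* missed it without 254, 323 or 282 (up to 0.0872), *Cyp2c39* without 254, 257 or 282 (up to 0.0728), and *Rdh16f2* passed only when 265 was left out (otherwise up to 0.159). *Dhrs9* passed in *Nts*+/+ livers without 323 (0.0339), and *Cyp2c39* in *Nts*-/- livers without 303 (0.0436) and in DESeq2 (0.0165). The other named genes of the list that passed with fasting in either genotype kept their side of the threshold in every such fit. For the named genes that passed in neither, such fits are not given here.

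**Figure D5:**
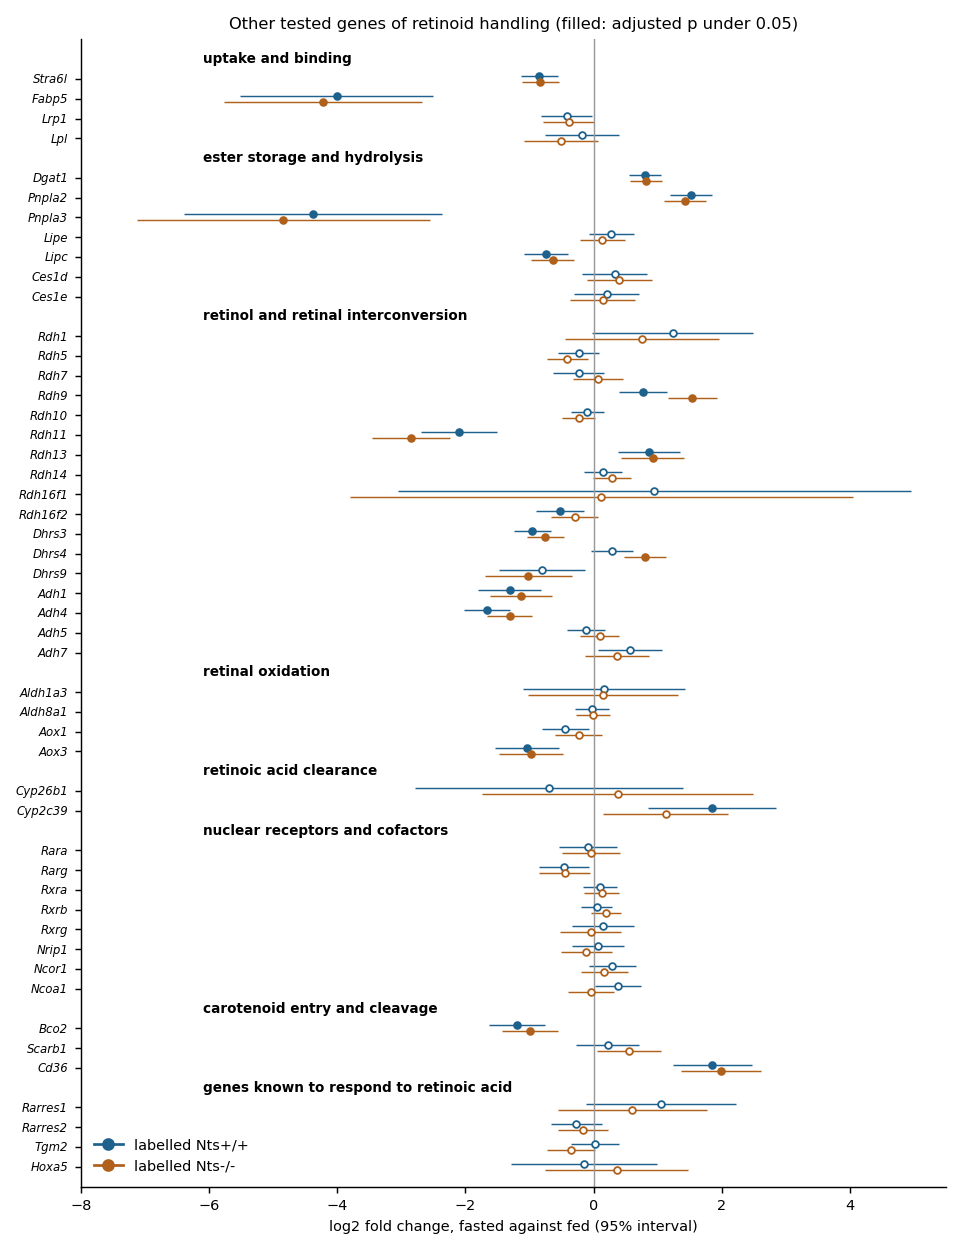
Log2 fold change with fasting (horizontal axis, with 95% intervals from edgeR) of tested genes of the wider retinoid list, grouped by role, in mice labelled *Nts*+/+ and *Nts*-/-. Filled points passed an adjusted *p* of 0.05. *Fabp5*, *Pnpla3* and *Rdh11* lie farthest below 0 and *Cd36* and *Cyp2c39* farthest above 0 among the filled points.

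For each of the 5 genes that changed with fasting, the tested genes with the most similar levels over the 12 mice were listed by Pearson's *r* of log2 CPM, as a description. These values share the libraries and the split between fed and fasted mice. For *Rbp4* they included 1110008F13Rik (*r* = 0.98) and *Rab1a* (0.978). For *Ttr* they were *Arhgap6* (0.957), *Mbl2* (0.956) and *Glud1* (0.947), and for *Lrat* they were *Ulk2* (0.928), *Zfp738* (0.926) and *Ces3b* (0.925). For *Rdh16* they were *Acsf2* (0.953), *Col12a1* (0.935) and *Ctage5* (0.934), and for *Cyp26a1* they were *Tmem29* (0.951), *Ift122* (0.95) and *Gbp11* (0.941). None of these genes is on the wider retinoid list.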

How the data were processed

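RNA of 12 mouse livers was sequenced. The authors deposited unscaled expected counts for each gene and mouse, in which a read that fits several genes is divided among them, so that values can be fractions. The submitters' processing notes name Trimmomatic, RSEM and GRCm38, and the aligner is not given in the sources used here. Strand is not stated. Columns of other samples number 0. Identifiers, symbols and positions are those of the table, and 99.8% of 34103 symbols shared with RefSeq GRCm38.p6 overlapped its positions.

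Counts were rounded. In R 4.3.3, edgeR 4.0.16 filtered low genes with filterByExpr (13812 kept), normalized by TMM and modelled the 4 group means of 12 mice together, with robust quasi-likelihood tests (common biological coefficient of variation 0.202) and Benjamini-Hochberg adjustment over all tested genes. Intervals are 95% intervals of the model. Totals of 21999647 to 45273069 counts set the precision. Levels per kilobase used the longest GENCODE vM39 transcript, matched by identifier. Coding identity used the longest open reading frame, from start to stop codon, among the protein-coding GENCODE vM39 transcripts of each gene name.

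The genes, lists, tests and alternatives were chosen with earlier results of these data known. Named are the 9 genes, the genes of a wider retinoid list past the threshold in a within-genotype fasting comparison or in a genotype comparison, *Stra6*, *Rara*, *Rxra*, *Dhrs3*, *Cyp26b1*, *Aldh1a2* and *Bco2* in any case, the 3 tested genes most correlated with each changed gene (log2 CPM, prior count 2), and check genes. Alternatives were RLE, upper-quartile and no normalization factors, DESeq2 1.42.0, all genes kept, genes with 10 or more counts in each mouse, a required change of 1 or more in log2, fits of the 6 mice compared alone, leaving out each mouse, and summing near-identical genes. Of the steps, only the edgeR fit was first tested on simulated counts, for fasted against fed *Nts*+/+ mice. Litters and proteins were not analysed here, and some genes that the rule names are not reported here.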

Additional observations from a re-analysis of the deposited data

How the results depend on the processing

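With the other normalizations, DESeq2 and both other count filters, 5 of the 9 genes passed with fasting in each genotype and for the mean of both, and 0 passed between the genotype labels. Fits of the 6 mice compared alone gave the same counts, without a value for the mean. Among all tested genes, DESeq2 called 2881 with fasting in *Nts*+/+ livers, 2788 in *Nts*-/- livers and 4706 for the mean. A required change of 1 or more in log2 left 2 of the 9 genes in *Nts*+/+ livers, 3 in *Nts*-/- livers and 2 for the mean. Leaving out 1 mouse gave between 2 and 4 genes in *Nts*+/+ livers, where these fits hold fewer mice, 4 or 5 in *Nts*-/- livers and 5 or 6 for the mean. Between the labels, and for the difference of the fasting responses, each such fit also gave 0 genes. With near-identical genes summed, chosen after seeing the data, 4 passed in *Nts*+/+ livers, since the *Rdh16* sum did not. Shares of all tested genes at settings other than DESeq2 are not given here, so these counts describe only the 9 genes.

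Some values that did not pass changed sign. Leaving out 1 mouse, the log2 fold change with fasting ranged from −0.184 to 0.0682 for *Aldh1a1*, from −0.483 to 0.174 for *Rarb* and from −0.0829 to 0.27 for *Bco1* in *Nts*+/+ livers. In *Nts*-/- livers it ranged from −0.0422 to 0.432 for *Aldh1a1*, which was at −0.0381 with library totals only. For *Cyp26a1*, the difference between the labels in fed livers ranged from −0.911 to 0.015, and the difference of the responses from −0.829 to 0.0985. The cause was not tested.

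No paired analysis was possible because the mouse numbers are not shared between groups and litters are not given. Fits without a mouse leave 2 in its group, which limits what they can detect, and levels of *Rarb* rest on 64 to 224 counts per mouse.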
